A study of Mus musculus with 11 samples.

Results

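The genes described here are the nuclear-encoded subunits of the oxidative phosphorylation complexes, chosen by gene name alone: symbols that start with Ndufa, Ndufb, Ndufc, Ndufs, Ndufv, Uqcr, Cox4 to Cox8 or Atp5, together with Sdha, Sdhb, Sdhc and Sdhd, and without the copies whose symbol carries "-ps". The rule found 93 symbols, 89 of the 29224 genes in the bulk table and 92 on 93 features of the 31053 in the single-cell matrix, where Atp5o has 2 identifiers, ENSMUSG00000022956 with all its counts and ENSMUSG00000116933 with 0. By complex, 36 belong to complex I, 4 to complex II, 8 to complex III, 20 to complex IV and 15 to complex V. The name rule also caught 10 assembly or related factors (Ndufaf1 to Ndufaf8, Atp5s and Atp5sl), which are counted apart. Ndufa4, named for complex I, is placed here in complex IV, where the protein is now known to sit.

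Oxidative phosphorylation makes ATP in the inner mitochondrial membrane. Complexes I and II pass electrons from NADH and succinate to ubiquinone, complex III passes them on to cytochrome c and complex IV to oxygen, and complex V uses the resulting proton gradient to make ATP. Complexes I, III, IV and V are built from nuclear genes and from a few genes of mitochondrial DNA, whereas complex II is wholly nuclear. In T cells, regulatory T (Treg) cells are known for a strong reliance on respiration, and dividing effector cells for high glycolysis beside it.

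RNA came from T cells of draining lymph nodes of C57BL/6 mice, in a study of the secreted Wnt and BMP antagonist Sostdc1. Ages, immunisation and how many mice were pooled are not stated in the labels. In bulk, 1 library of follicular regulatory T (Tfr) cells, sorted as CXCR5+ PD1+ GITRhi, was labelled as wild type (WT, 18076300 counts) and 1 as Sostdc1 knockout (KO, genotype "Sostdc1 homo", 27777625 counts). The single-cell library held CD44+ CD4+ T cells of Sostdc1-EGFP heterozygous reporter mice, 15002 barcodes that were all different. Of the 11 samples of the series the other 8 were not analysed here.

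With 1 library per bulk group and 1 single-cell library there is no replicate check, so no p-value is given for any difference, and every interval is a 95% interval for counting error only. The bulk labels disagree with Sostdc1 itself, which had 458 counts in the library labelled KO against 4 in the one labelled WT. Xist, the RNA that coats the inactive X chromosome, stood at 1232 and 2.16 CPM (counts scaled to a library total of 1000000), and the Y-linked gene Ddx3y at 0.216 and 197 CPM, so the label and sex-linked RNA cannot be told apart. Both libraries carried the markers of the sort, with Cxcr5 at 62.8 and 55.7 CPM, Pdcd1 at 229 and 164 CPM and Tnfrsf18, which encodes GITR, at 276 and 165 CPM in the libraries labelled KO and WT. Foxp3 was at 1164 and 1471 CPM, lower in the library labelled KO, whereas 6 of the 7 Treg identity genes had a log2 ratio above 0 there. Directions below name the library by its label only.

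A feature many of these genes are known for is a promoter site of the factor NRF1, so promoters were searched for its exact 10-letter core, which reads the same on both strands and stands in capitals in the first 4 runs printed here. RefSeq promoters (assembly GRCm38.p6, 250 bases before to 50 after the gene start) matched 77 of the 93 symbols. The NRF1 word was in the promoters of 7 of these 77 genes (9.09%), against 1.07% of 27025 genes in the table and 2.68% of the 7985 genes in it with at least 5 CPM in bulk. The 10-letter YY1 word, in capitals in the Atp5j run, was also in 7 (9.09%), against 0.995% of all genes and 2.87% of those with at least 5 CPM. The word CCGGAAGT of GABPA and other ETS factors was in 5 (6.49%), against 4.31% of all genes and 10.7% of those with at least 5 CPM. The YY1 and ETS words were searched on both strands, and no word is contained in another. Of the 71 matched members that themselves had at least 5 CPM in bulk, 9.86% had the NRF1 word, 9.86% the YY1 word and 7.04% the ETS word. The 4 structural subunits with the NRF1 word before their start are shown because they include opposite ends of the bulk comparison: Atp5k was the highest member in the library labelled KO and Cox6a1 among the lowest. Atp5j is shown for the YY1 word, as the only structural subunit with it before the start. In most of the other genes counted for it, among them Ndufs7 and Ndufaf8, the YY1 word begins after the start. Each run is 60 bases, 5′ to 3′ on the gene's strand, with the word searched in capitals. They lie at chr5:108434415-108434474 (minus strand) for Atp5k, chr5:115349086-115349145 (minus) for Cox6a1, chr15:102671055-102671114 (minus) for Atp5g2 and chr17:56717677-56717736 (plus) for Ndufa11, and the word begins 50, 162, 42 and 60 bases before the annotated start. The Atp5j run lies at chr16:84835030-84835089 (minus), and its word begins 88 bases before the start.
Atp5k: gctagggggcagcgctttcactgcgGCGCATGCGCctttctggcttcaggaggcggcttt
Cox6a1: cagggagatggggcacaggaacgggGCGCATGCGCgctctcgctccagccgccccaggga
Atp5g2: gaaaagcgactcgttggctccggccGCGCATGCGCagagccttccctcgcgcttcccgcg
Ndufa11: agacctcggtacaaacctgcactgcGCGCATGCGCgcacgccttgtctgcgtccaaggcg
Atp5j: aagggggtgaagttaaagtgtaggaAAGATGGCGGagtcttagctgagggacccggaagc
A match of these letters is a description of the sequence and not evidence of a bound site.

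Between the bulk Tfr libraries the members were spread to both sides. Summed over the 89 genes they took 6009 CPM in the library labelled KO against 5161 CPM in the one labelled WT, 0.601% and 0.516% of all counts. With a minimum of 5 CPM in either library, 83 members remained. Of these, 20 were at least 1.5-fold higher in the library labelled KO, where 9.47% of all 10194 genes at that level were, and 13 were at least 1.5-fold lower, where 19.7% of all genes were. At 2-fold, 1 member was higher, where 2.6% of all genes were, and 5 were lower, where 9.12% were. Log2 ratios and the calls by size were taken on log2(CPM + 1), while ratios printed without log2 are of plain CPM. Uqcrb and Ndufa1, with plain ratios of 2.04 and 2.03, therefore fell just short of the 2-fold call. The median member ratio was 0.23 on the log2 scale and that of all genes -0.04. Scaling by the trimmed mean of M-values (TMM) moved the all-gene median to 0.11 and the member median to 0.38, with 27 members higher, where 15.3% of all genes then were, and 7 lower, where 14.9% were. Without the members whose span overlaps another gene, the median was 0.17 over 56 members, 15 of them higher and 9 lower.

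**Figure D1:**
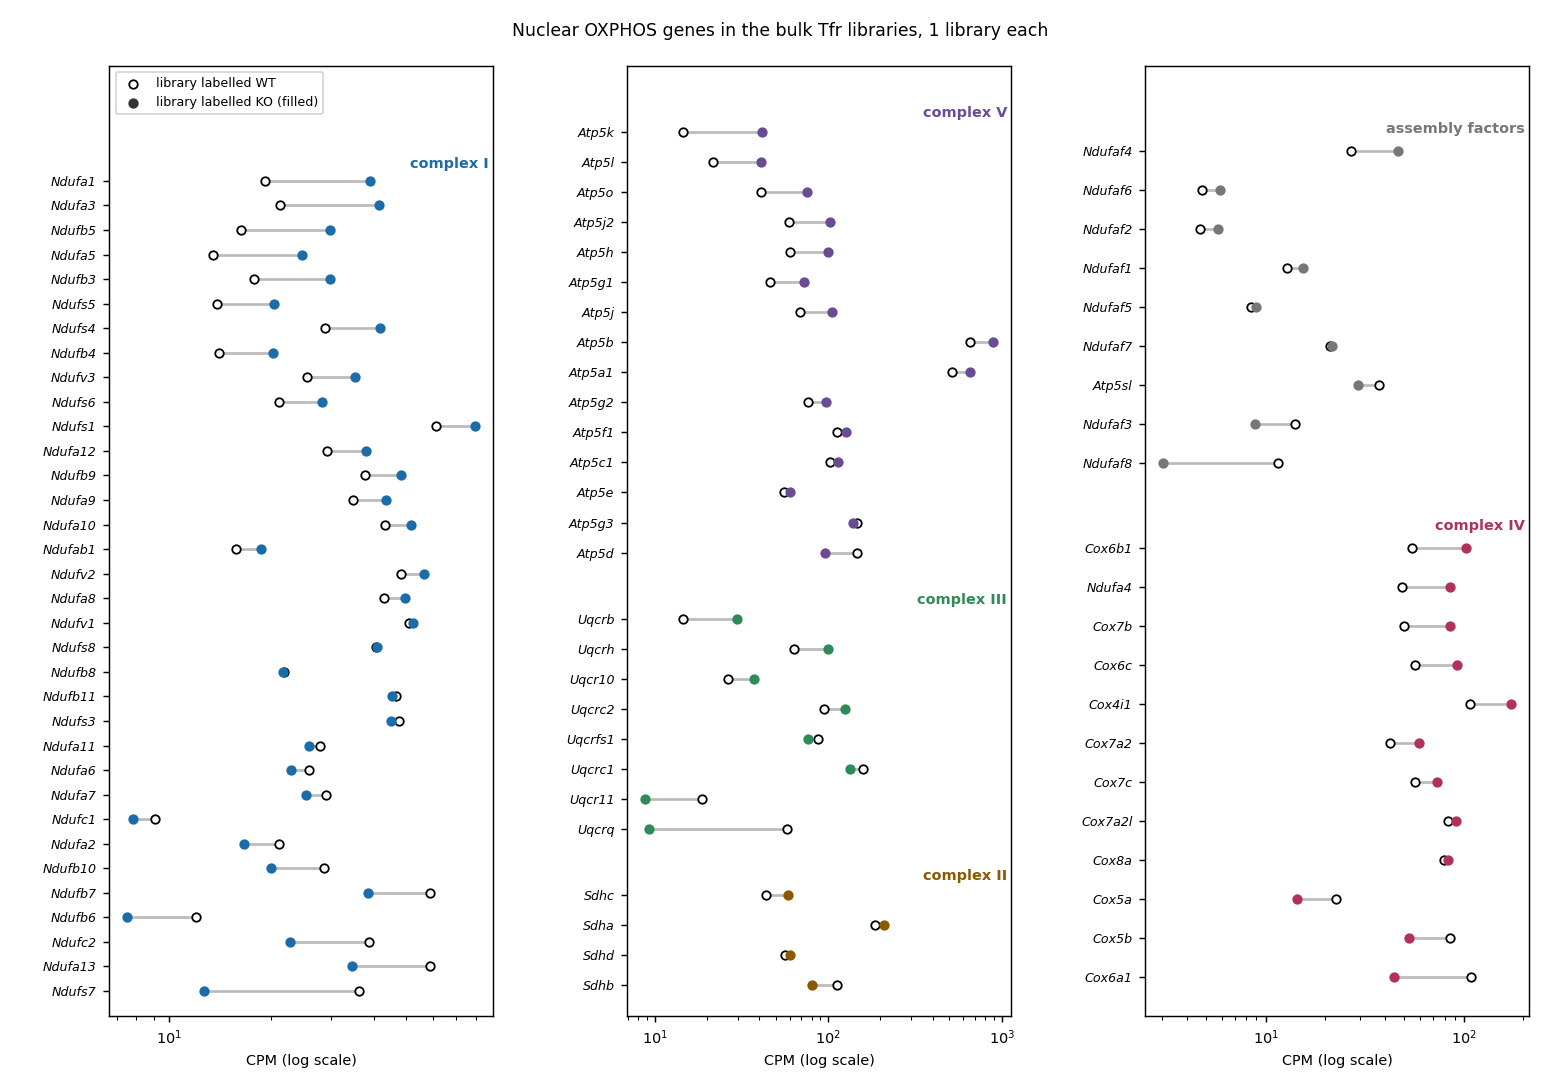
CPM on a log axis of members with at least 5 CPM, by complex, in the library labelled WT (open circles) and the library labelled KO (filled circles), 1 library each. Atp5k at the top of complex V and Uqcrq at the bottom of complex III have the longest lines in opposite directions.

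Complex V, the ATP synthase, leaned most to the library labelled KO in its count: 7 of 15 members were at least 1.5-fold higher and 1 lower, with a median log2 ratio of 0.44. Atp5k, the small e subunit at the dimer interface, had 41.3 CPM in the library labelled KO against 14.5 CPM in the one labelled WT, a ratio of 2.84 (2.48 to 3.26). Atp5l, the g subunit beside it, had 40.9 and 21.6 CPM, and Atp5j2, the f subunit, 102 and 59.2 CPM. In the stalk that holds the catalytic head in place, Atp5o had 75.3 and 41.0 CPM, Atp5h 99.1 and 60.4 CPM, and Atp5j 105 and 69.0 CPM, with Atp5j at 1.52-fold just past the size used and its span overlapping that of Gabpa. The fourth stalk gene, Atp5f1, did not pass it, with 127 and 112 CPM, a ratio of 1.135. Nor did the catalytic subunits of the head, Atp5b at 896 and 660 CPM, a ratio of 1.36, and Atp5a1 at 658 and 520 CPM, a ratio of 1.26. Among the 3 genes for the same rotor c subunit, Atp5g1 was 1.57-fold higher (72.0 and 46.0 CPM), Atp5g2 had a ratio of 1.26 and Atp5g3 one of 0.941, so the share of the isoform genes differed between the libraries. The single complex V member past the size in the other direction was Atp5d, the delta subunit of the head, with 95.7 CPM in the library labelled KO against 147 CPM in the one labelled WT. Its span overlaps Cbarp, which went the same way (13.9 and 52.8 CPM).

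Complex IV, cytochrome c oxidase, was split. Of its 12 members at 5 CPM, 5 were higher and 3 lower in the library labelled KO, and the median was 0.42. Cox6b1, an outer subunit near the cytochrome c site, had 103 CPM in the library labelled KO against 54.8 CPM in the one labelled WT, a ratio of 1.88 (1.74 to 2.02). Ndufa4 had 85.7 and 49.1 CPM, Cox6c 92.7 and 56.6 CPM, the X-linked Cox7b 85.6 and 50.2 CPM and Cox4i1, the main regulatory subunit, 174 and 108 CPM. On the other side stood Cox6a1, the non-muscle form of subunit VIa, with 44.7 CPM in the library labelled KO against 109 CPM in the one labelled WT, a ratio of 0.411 (0.383 to 0.442). Cox5a and Cox5b, the matrix-side subunits, were also lower, with 14.4 and 22.6 CPM for Cox5a and 53.0 and 85.5 CPM for Cox5b.

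Complex III held the lowest member. Uqcrq, the ubiquinone-binding subunit VII, had 9.25 CPM in the library labelled KO (257 counts) against 57.8 CPM in the one labelled WT (1045 counts), a ratio of 0.16 (0.139 to 0.184). Gdf9, whose span overlaps Uqcrq, had 13 and 10 counts. Uqcr11, another small subunit, had 8.71 and 18.8 CPM. Uqcrb and Uqcrh went the other way, with 29.8 and 14.6 CPM for Uqcrb, a ratio of 2.04 (1.78 to 2.36), and 99.8 and 63.3 CPM for Uqcrh, the hinge protein that helps cytochrome c bind. The 3 large proteins lay between: the core proteins Uqcrc1 and Uqcrc2 had ratios of 0.842 and 1.32, and the Rieske iron-sulfur protein Uqcrfs1 one of 0.885.

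In complex I, the NADH dehydrogenase, 5 of 35 members were higher and 5 lower, with a median of 0.20. The higher members were all accessory subunits. The X-linked Ndufa1 had 39.0 CPM in the library labelled KO against 19.2 CPM in the one labelled WT, a ratio of 2.03 (1.796 to 2.297), and Ndufa3 had 41.5 and 21.2 CPM. Ndufa5, Ndufb5 and Ndufb3 followed at 1.83-fold, 1.82-fold and 1.67-fold. Among the core subunits, several of which carry the flavin or the iron-sulfur clusters, Ndufs3 had a ratio of 0.949, Ndufs8 1.01, Ndufv1 1.03, Ndufv2 1.17 and Ndufs1 1.31. Lower than these was Ndufs7, which holds the cluster next to the quinone site, at 12.6 and 36.2 CPM, a ratio of 0.349 (0.305 to 0.398). The other lower members were Ndufa13 (34.6 and 58.7 CPM; also known as the cell death regulator GRIM-19), Ndufc2 (22.7 and 38.7 CPM), Ndufb6 (7.49 and 12.01 CPM) and Ndufb7 (38.5 and 58.8 CPM). The third X-linked member, Ndufb11, had 45.3 and 46.6 CPM.

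None of the 4 succinate dehydrogenase genes of complex II passed the size. The flavoprotein Sdha had 209 CPM in the library labelled KO against 187 CPM in the one labelled WT, the membrane anchors Sdhc 58.6 and 43.5 CPM and Sdhd 59.8 and 56.4 CPM, and the iron-sulfur protein Sdhb 80.4 and 113 CPM, so Sdhb alone lay on the lower side. Among 9 assembly or related factors at 5 CPM, Ndufaf4 was higher (46.7 and 27.0 CPM) and Ndufaf8 (3.02 and 11.6 CPM) and Ndufaf3 (8.82 and 14.1 CPM) were lower.

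Other genes of respiration gave the setting. The 13 subunits of mitochondrial DNA summed to 10951 CPM in the library labelled KO against 6557 CPM in the one labelled WT, and 9 of 12 at 5 CPM were at least 1.5-fold higher, with a median log2 ratio of 0.82 and mt-Nd2 (954 and 469 CPM) and mt-Cytb (1855 and 984 CPM) among them. Mitochondrial genes as a whole took 1.29% and 0.772% of counts. Of all genes at 5 CPM, 9.47% were at least 1.5-fold higher in the library labelled KO and 19.7% lower. Assembly factors outside the rule had a median of 0.02, with 2 of 31 higher and 3 lower, and Cox11, which delivers copper to complex IV, had 1.40 CPM in the library labelled KO against 15.9 CPM in the one labelled WT. Electron carriers and nucleotide exchange genes had a median of 0.27 (4 of 20 higher), with Cycs, which encodes cytochrome c, at 117 and 72.4 CPM. For the citric acid cycle and pyruvate dehydrogenase genes the median was 0.29 (1 of 18 higher), for glycolysis 0.22 (3 of 18 higher, 3 lower) and for proteins of the mitochondrial ribosome 0.24 (9 of 77 higher, 10 lower). Regulators of mitochondrial biogenesis had a median of 0.09, with 1 of 18 higher and 5 lower. Esrra, a nuclear receptor known to act on these genes, had 10.8 CPM in the library labelled KO against 39.3 CPM in the one labelled WT, and Yy1 had 132 and 258 CPM, while Nrf1 had 68.6 and 66.1 CPM and Tfam, which packages and transcribes mitochondrial DNA, 57.3 and 52.5 CPM.

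Marker genes of cell types also differed between these libraries. The 7 Treg identity genes summed to 9712 CPM in the library labelled KO against 7207 CPM in the one labelled WT, with 4 at least 1.5-fold higher and 0 lower, and the 7 follicular identity genes to 2675 and 1713 CPM, with 2 higher and 1 lower. Both sums leaned the same way as the members' sum. B cell markers were close, at 14.3 and 15.2 CPM. Myeloid markers were at 34.8 and 12.3 CPM, NK and CD8 T cell markers at 21.3 and 12.2 CPM, resting T cell genes at 591 and 1024 CPM and cycling genes at 871 and 796 CPM, and 50 of 79 cytosolic ribosomal protein genes were at least 1.5-fold higher in the library labelled KO and 5 lower. Their part in the member values was not tested. In bulk, fewer cells of a type and less RNA per cell cannot be told apart.

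In the single-cell library, cells were put into gates by raw counts of unique molecular identifiers (UMIs) of marker genes that are not members, after removing cells with at least 2 UMIs of another cell type's markers. Resting cells had resting T cell markers, Ccr7 among them, and no Foxp3, Cxcr5 or Pdcd1; Treg cells had Foxp3 and no Cxcr5; Tfr cells had Foxp3, Cxcr5 and Pdcd1; follicular helper T (Tfh) cells had Cxcr5 and Pdcd1 and no Foxp3; none of these had Mki67 or Top2a. Cycling cells had both Mki67 and Top2a. The gates held 1881 resting, 1390 Treg, 56 Tfr, 499 Tfh and 767 cycling cells (329 with Foxp3), with a median of 6171, 5400.5, 7619, 6727 and 17729 UMIs per cell. Genes outside the gate rules went with the names of the resting, Treg and Tfh gates. Klf2 was highest in resting cells (629 UMI CPM, the gate's summed UMIs scaled to 1000000, against 142 to 451 in the other gates). Il2ra was highest in Treg cells (226 against 11.3 to 160) and Bcl6 in Tfh cells (75.9 against 7.22 to 24.9). The Tfr gate was mixed: Il2ra was at 160 there, and Il21, a follicular identity gene, at 45.6, against 1.55 in Treg and 62.0 in Tfh cells. Of the 56 Tfr cells, 16 were among the 10% of cells with the highest doublet scores.

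Of all UMIs, each complex took the smallest share in resting cells and the largest in cycling cells; on a total without ribosomal protein and mitochondrial UMIs, the Treg to resting ratio of complexes III, IV and V turned to just under 1 (0.995, 0.985 and 0.98988). The members together had 16017 UMI CPM in resting cells, 19540 in Treg, 21436 in Tfr (21025 to 21853), 21422 in Tfh and 27336 in cycling cells. In UMIs per cell these were 106, 118, 185, 160 and 538. Neighbours in the order were separated beyond their counting intervals except Tfr and Tfh cells, whose ratio was 1.001 (0.98 to 1.021). Complex V had 4789 in resting, 5777 in Treg, 6445 in Tfr, 6348 in Tfh and 8544 UMI CPM in cycling cells, and complex I 4596, 5783, 6325, 6333 and 7798 in the same order. Complex IV had 4502, 5402, 5786, 5910 and 7635, complex III 1670, 2025, 2322, 2271 and 2585, and complex II 262, 329, 334, 319 and 490 UMI CPM. Of 81 members with enough counts to order, 69 were highest in cycling cells and 72 lowest in resting cells. This order was not computed over all genes, so the counts are not set against them. Of all genes, 39.8% were at least 1.5-fold higher in cycling than in resting cells and 12.2% lower.

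**Figure D2:**
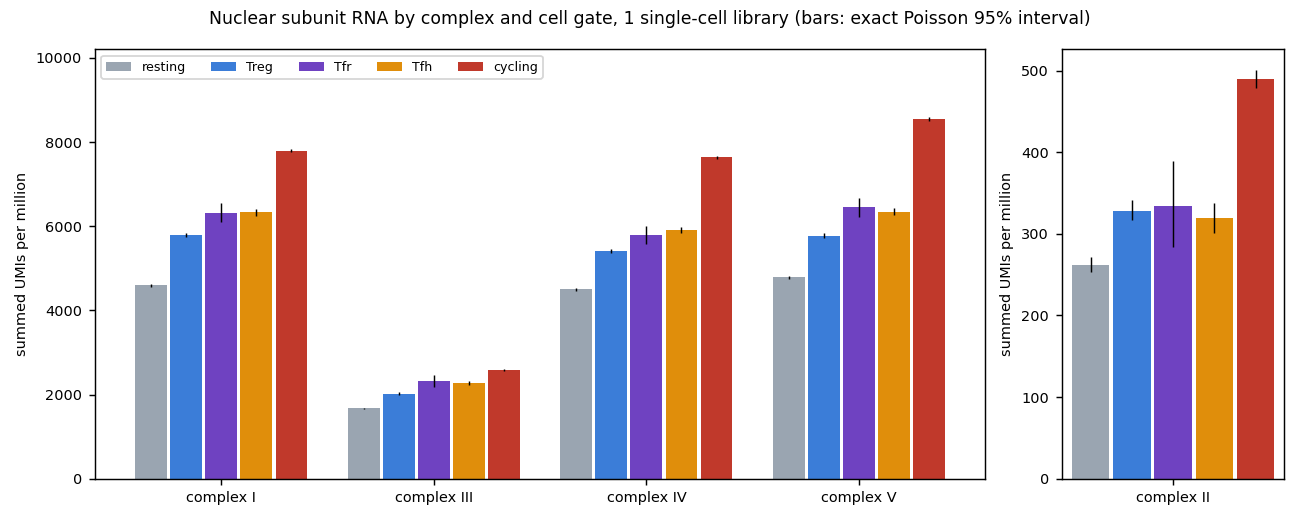
Summed UMI CPM of each complex in the 5 gates of the single-cell library, with complex II on its own axis; bars start at 0 and lines are exact Poisson 95% intervals. In every complex the resting gate is lowest and the cycling gate highest, and complex II lies between 262 and 490 while the others lie between 1670 and 8544.

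Against resting cells, cycling cells had a member ratio of 1.71 (1.70 to 1.72). Of 80 members with at least 20 UMI CPM in 1 of the gates, 59 were at least 1.5-fold higher in cycling cells, where 39.8% of all 5532 genes were, and 1 was at least 1.5-fold lower, where 12.2% of all genes were. At 2-fold, 32 were higher (22.6% of all genes) and 1, Cox7a2l, was lower (5.17%). The median member log2 ratio was 0.93 and that of all genes 0.39. Cox5a was first, with 221 UMI CPM in resting, 320 in Treg, 373 in Tfr, 312 in Tfh and 678 in cycling cells, a cycling to resting ratio of 3.07 (2.94 to 3.20). Its partner on the matrix side, Cox5b, had 219, 318, 307, 336 and 608, a ratio of 2.77. In complex I, Ndufb8 had 110, 182, 209, 197 and 319 (ratio 2.89), and Ndufa12 95.9, 127, 186, 139 and 241 (ratio 2.52). For the rotor gene Atp5g3 the values were 166, 236, 278, 277 and 423 (ratio 2.55). The large catalytic subunit Atp5b had 347, 396, 474, 362 and 750. Each of these genes was highest in the cycling gate.

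Succinate dehydrogenase did not move as 1 unit. The anchor Sdhd had 43.6 UMI CPM in resting, 54.8 in Treg, 58.0 in Tfr, 48.3 in Tfh and 123 in cycling cells, a cycling to resting ratio of 2.82 (2.56 to 3.11), and the iron-sulfur protein Sdhb had 89.8, 139, 143, 134 and 224, a ratio of 2.499. The flavoprotein Sdha had 96.8, 96.4, 89.1, 98.4 and 92.4, a ratio of 0.954 (0.883 to 1.03), with a highest to lowest ratio of 1.11 over the 5 gates. The other anchor, Sdhc, lay between, from 32.3 in resting to 49.9 in cycling cells. Sdha is the only subunit of the 4 whose cycling interval includes the resting level.

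A small set ran against the rest. Cox7a2l has been described as a factor that links complex III to complex IV in supercomplexes, which were not measured here. Cox7a2l had 748 UMI CPM in resting cells, 570 in Treg, 460 in Tfr, 485 in Tfh and 316 in cycling cells. It was thus highest in the gate where most members were lowest. Its cycling to resting ratio was 0.423 (0.408 to 0.438), and it was the single member past 1.5-fold lower in that pair. Its log2 ratio was negative under the 9 alternatives run, from -1.62 to -0.76. Ndufa6, an accessory subunit of the LYR protein family, had 265, 263, 203, 219 and 178 (ratio 0.673, 0.640 to 0.709). Uqcrh had 758, 799, 866, 885 and 651 (ratio 0.858), and copies of this gene exist under other symbols, so its counts are less certain. In the bulk Tfr libraries Cox7a2l had 91.4 CPM in the library labelled KO against 83.4 CPM in the one labelled WT.

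**Figure D3:**
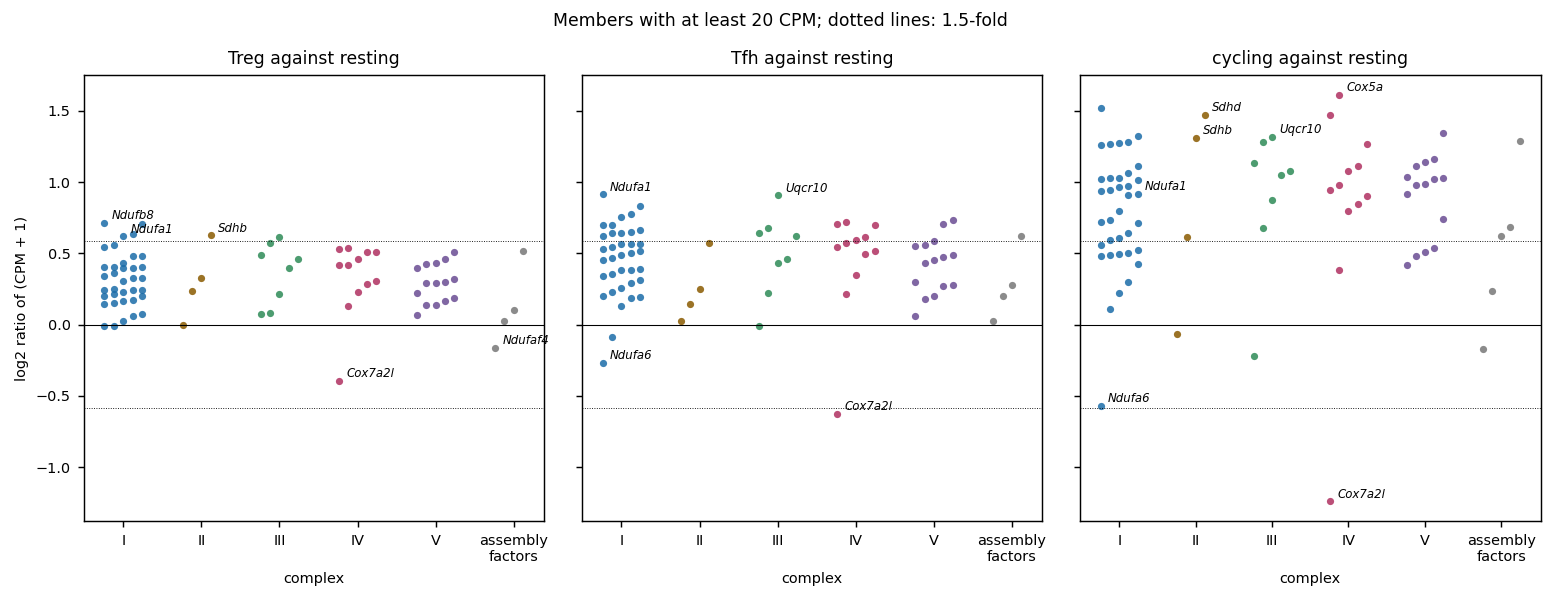
Log2 ratio of (CPM + 1) of each member with at least 20 CPM, by complex, for Treg, Tfh and cycling cells against the same resting cells; dotted lines mark 1.5-fold. Most points lie above 0 in each panel, and Cox7a2l is the lowest point in all 3.

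Treg cells stood between, with a member ratio to resting cells of 1.22 (1.21 to 1.23). At the 1.5-fold size, 6 of 79 members were higher in Treg cells, where 17.5% of all genes were, and 0 were lower, where 2.14% were, so few single genes passed that size although 74 of 79 had a ratio above 1. The 6 were Ndufb8 (182 and 110 UMI CPM in Treg and resting cells, ratio 1.64), Ndufb7 (304 and 186, ratio 1.63), Ndufa13 (477 and 307, ratio 1.55), Sdhb (139 and 89.8, ratio 1.55), Ndufa1 (182 and 118, ratio 1.54) and Uqcr11 (190 and 124, ratio 1.53). At 2-fold there were 0 in either direction, where 7.53% of all genes were higher and 0.645% lower. The median log2 ratio was 0.31, beside 0.27 over all genes.

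Tfh cells had a member ratio to the same resting cells of 1.34 (1.33 to 1.35). In this pair 23 of 79 members were at least 1.5-fold higher, where 26.5% of all genes were, and 1, Cox7a2l, was lower, where 3.56% were. Ndufa1 was first, with 224 UMI CPM in Tfh and 118 in resting cells, a ratio of 1.89 (1.74 to 2.06), followed by Uqcr10, a small complex III subunit (321 and 171, ratio 1.88), and Ndufb8 (197 and 110, ratio 1.78). At 2-fold, 0 members were higher (9.08% of all genes) and 0 lower (1.41%). The median log2 ratio was 0.49, beside 0.35 over all genes. The share of members past 1.5-fold higher was below that of all genes in Treg cells and close to it in Tfh cells.

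Tfr cells were set against their neighbours in the gating. Against Treg cells the member ratio was 1.10 (1.08 to 1.12), and against Tfh cells 1.001. No member passed 1.5-fold in either direction, 0 of 80 against Treg cells, where 12.2% of all genes were higher and 7.43% lower in Tfr cells, and 0 of 80 against Tfh cells, where 9.96% were higher and 7.52% lower. The same held at 2-fold, where 3.59% of all genes were higher and 2.07% lower against Treg cells and 3.43% and 2.07% against Tfh cells. Ndufa12 came nearest against Treg cells, with 186 UMI CPM in Tfr and 127 in Treg cells, a ratio of 1.47 (1.17 to 1.82), and Ndufa6 was lowest at 203 and 263, a ratio of 0.772 (0.624 to 0.945). Against Tfh cells Uqcrc1 was highest (114 and 84.0, ratio 1.36) and the X-linked Ndufb11 lowest (261 and 322, ratio 0.811). With 56 Tfr cells, intervals of single genes are wide. A gene near the minimum of 20 UMI CPM rested on few UMIs there, as Ndufaf2 did with 10 (20.7 UMI CPM). Most members stood well above that minimum, and the shares of all genes were not matched for level. The counts of 0 therefore do not show that members differ less than other genes of their level. A stricter setting required at least 2 UMIs of Foxp3 in Tfr and Treg cells, and of Cxcr5 and Pdcd1 in Tfh cells. Cxcr5 and Pdcd1 stayed at 1 UMI in Tfr cells, so the Tfr and Tfh gates were of unlike strictness. It left 24 Tfr cells and ratios of 1.01 to Treg and 0.903 to Tfh cells. A small difference between Tfr and either neighbour was thus not resolved here.

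Within Foxp3-positive cells, the cycling cells had 1.40 times the member share of Treg cells (1.39 to 1.41). These gates differ in more than cycling: Treg cells had no Cxcr5, while cycling cells had no rule on Cxcr5 or Pdcd1. The cycling Foxp3-positive cells were also deeper, with a median of 17737 UMIs against 5400.5 in Treg cells. In this pair 38 of 80 members were at least 1.5-fold higher in cycling cells, where 21.8% of all genes were, and 1 (Cox7a2l, 297 and 570 UMI CPM) was lower, where 17.9% were. At 2-fold, 4 were higher (10.5% of all genes) and 0 lower (6.8%). Sdhd (133 and 54.8, ratio 2.43) and the assembly factor Ndufaf2 (49.3 and 20.6, ratio 2.40) were first, then Cox5a (684 and 320) and Ndufab1, the mitochondrial acyl carrier protein (233 and 111, ratio 2.11). In cells of 4000 to 8000 UMIs (34 cycling and 803 Treg cells) the log2 ratios of Ndufaf2 and Ndufab1 turned to -0.92 and -0.18. Cycling cells with and without Foxp3 had nearly the same member share, 27317 and 27351 UMI CPM.

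The size of these ratios depended on what the share was taken of. Cytosolic ribosomal protein RNA took 41.6% of UMIs in resting cells, 30.6% in Treg, 27.3% in Tfr, 28.5% in Tfh and 26.4% in cycling cells. With ribosomal protein and mitochondrial UMIs left out of the total, the members had 29905 UMI CPM in resting cells, 29940 in Treg, 31607 in Tfr, 32474 in Tfh and 39122 in cycling cells. The ratio to resting cells was then 1.001 for Treg, 1.09 for Tfh and 1.31 for cycling cells, and 0 of the 6, 2 of the 23 and 37 of the 59 members stayed past 1.5-fold higher. The share of all genes was not computed on this total. On it, 45 of 79 members had a ratio above 1 in Treg against resting cells. The ratio of cycling cells was smaller within a window of depth. Among cells with 4000 to 8000 UMIs (90 cycling and 1409 resting) it was 1.34 against resting cells. For cycling Foxp3-positive against Treg cells (34 and 803) it was 1.13. The window kept 90 of the 767 cycling cells, and the cause of the change was not tested.

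**Figure D4:**
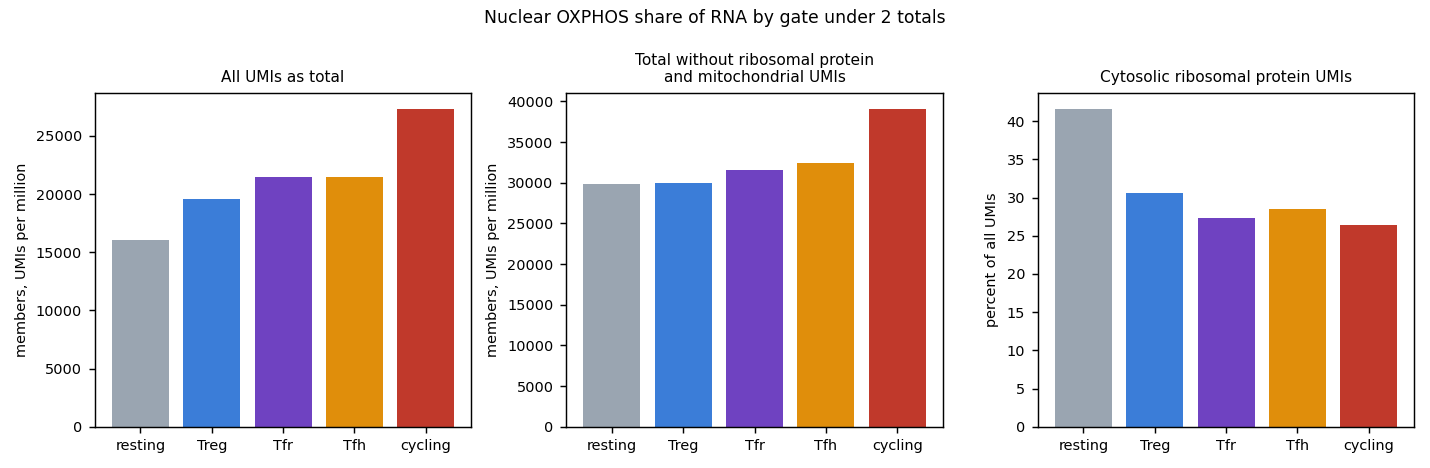
Member UMI CPM over all UMIs (left), the same scaled to the total without ribosomal protein and mitochondrial genes (middle) and the percent of UMIs from cytosolic ribosomal protein genes (right) in the 5 gates. The step from resting to Treg cells is seen on the left and not in the middle, while cycling cells are highest in both.

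RNA of the 13 subunits encoded by mitochondrial DNA did not follow the nuclear subunits. It took 47937 UMI CPM in resting, 41230 in Treg, 48344 in Tfr, 55592 in Tfh and 36805 in cycling cells, so the gate with the largest share of nuclear subunit RNA had the smallest share of mitochondrially encoded subunit RNA. In UMIs per cell these were 318, 250, 417, 415 and 725, so per cell the cycling gate had the most of both. Nuclear structural subunit UMIs per mitochondrially encoded UMI were 0.330 in resting, 0.468 in Treg, 0.439 in Tfr, 0.381 in Tfh and 0.735 in cycling cells. In the cycling to resting pair 12 of 13 mitochondrially encoded genes had a ratio under 1. Of the 13, 3 were at least 1.5-fold lower, where 12.2% of all genes were, among them mt-Nd2 (2006 and 3165 UMI CPM). Cells with at least 10% mitochondrial UMIs had been left out beforehand.

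Other respiratory gene lists in cycling against resting cells gave summed ratios of 2.11 for electron carriers and nucleotide exchange (11 of 13 at least 1.5-fold higher), 1.70 for the mitochondrial ribosome (52 of 73), 1.63 for the citric acid cycle and pyruvate dehydrogenase (9 of 17), 1.35 for assembly factors outside the rule (7 of 24 higher, 1 lower), 1.31 for biogenesis regulators (4 of 9) and 3.33 for glycolysis (11 of 13). Of all genes in this pair, 39.8% were at least 1.5-fold higher and 12.2% lower. The assembly factors outside the rule had a smaller share of higher genes than all genes, and the biogenesis regulators a share close to that of all genes. Coq7, an enzyme of ubiquinone synthesis, had 38.2 UMI CPM in cycling and 6.97 in resting cells. Atpif1, an inhibitor of the ATP synthase, had 279 and 59.4, and Cycs 294 and 113. Nrf1 had 41.4 and 24.8 and Tfam 97.6 and 67.4 UMI CPM. Glycolysis, then, had the highest of these summed ratios, above that of the nuclear subunits. In Tfr against Treg cells its summed ratio was 1.501 (1.44 to 1.56), beside 1.10 for the members.

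Isoforms known from other tissues were nearly absent from the T cell gates. Cox7b2, Cox8b and Cox8c had 0 UMIs in the matrix and Ndufa4l2 had 1. Cox7a1 and Cox6b2, the muscle form of subunit VIIa and the testis form of VIb, reached at most 4.14 and 1.34 UMI CPM in any gate, the first of these on 2 UMIs. Cox6a2, the heart and muscle form of subunit VIa, had 26 UMIs in the 5 gates together, at most 0.721 UMI CPM, yet 3063 in all 13190 filtered cells. Of these, 98.2% were in cells removed for another type's markers. In 102 cells with at least 2 UMIs of Siglech, a receptor known from plasmacytoid dendritic cells, and none of Cd3, a set chosen after the values were seen, Cox6a2 had 1661 UMI CPM and the common form Cox6a1 244. A Cox6a2 UMI was found in 85.3% of these cells (exact binomial 76.9% to 91.5%, median 8742.5 UMIs), against 0.614% of 489 cells with B cell markers (median 4638 UMIs). Siglech cells with or without Cd3, 213 in all, held 96.9% of the Cox6a2 UMIs. Cox4i2, the oxygen-responsive form of subunit IV, had 1 UMI in the gates and 190 in all filtered cells, and in 59 cells chosen in the same way by Marco, a macrophage receptor, it had 389 UMI CPM beside 999 of Cox4i1. These cells had a median of 2578 UMIs and held 40% of the Cox4i2 UMIs, 76 of 190. In bulk, Cox6a2 had 0 and 6 counts in the libraries labelled KO and WT, while Cox4i2 had 102 and 69 counts, and its span overlaps Bcl2l1, which had 15275 and 8214.

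**Figure D5:**
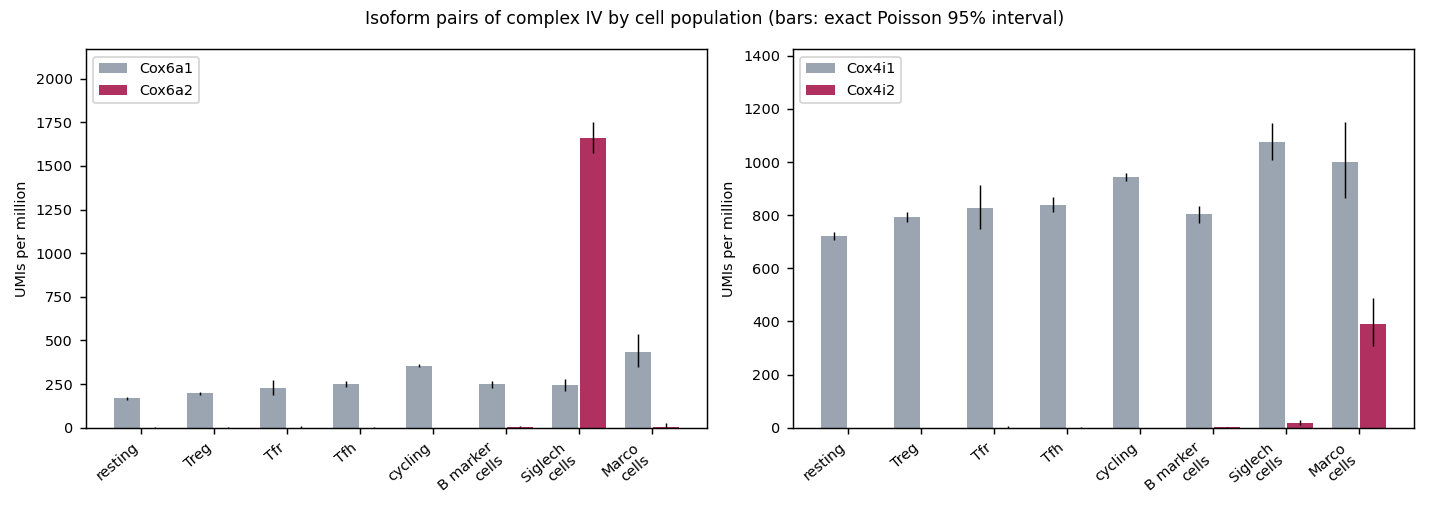
UMI CPM of the common and tissue isoforms of complex IV subunits VIa (left) and IV (right) in the 5 T cell gates and in cells with B cell markers, Siglech or Marco; lines are exact Poisson 95% intervals. Cox6a2 exceeds Cox6a1 in the Siglech cells and is near 0 in the gates, and Cox4i2 is seen in the Marco cells.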

How the data were processed

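The authors' deposited bulk table gives whole-number counts per gene; its normalized values are CPM per the file headers and values, its fold column is the ratio of those, and its log2 column the logarithm of that ratio. The authors' deposited p-values compare 1 library with 1 and were not used. Single-cell values are UMI counts as deposited, from Cell Ranger 3.1.0 per the file headers; the submitters' processing notes list version 2.1.0, mm9 and mm10. No source used here gives the bulk counter or its strand setting, so overlapping genes and near-identical copies are uncertain. The WT column carries a number its sample title lacks.

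CPM were computed from counts and library totals with Python 3.11.15. Log2 ratios and calls by size used log2(CPM + 1), and other ratios used plain CPM. Intervals were exact conditional binomial for ratios of plain CPM and exact Poisson for levels. A floor of 3 counts is 0.108 CPM (labelled KO) or 0.166 CPM (labelled WT). Bulk genes needed 5 CPM and gate genes 20 CPM in 1 of the groups compared. TMM factors came from edgeR 4.0.16. Cells needed 500 genes and under 10% mitochondrial UMIs, which left 13190 of 15002; 10683 were T cells and 4593 fell in a gate. Doublet scores came from scanpy 1.11.5. The ratio and interval code was tested on simulated data. Bulk members past 1.5-fold, the 3 highest and lowest per complex, the 5 highest and lowest per gate pair, X-linked members, core subunits, succinate dehydrogenase and tissue isoforms were eligible to be named; 1 member and 1 gate marker are not reported here. Members and gene lists were chosen with earlier results of these data known. Alternatives covered scaling, pseudocounts, filters, depth, doublets, totals and gate rules. With spans from RefSeq and no transcript lengths, bulk levels are not compared between genes.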

Additional observations from a re-analysis of the deposited data

How the results depend on the processing

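No paired analysis was possible because each group is 1 library. In bulk, 1 member passed 2-fold in the higher and 5 in the lower direction, and with TMM 7 were lower. The bulk median log2 ratio was 0.38 with TMM, which shifted all genes by about 0.15, 0.24 and 0.19 at pseudocounts of 0.5 and 5 CPM, 0.20, 0.31 and 0.18 with members of at least 1 CPM, at least 20 CPM and no filter, 0.17 without overlapping members and 0.24 for structural subunits.

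Summed ratios are given in the order Treg to resting, Tfh to resting, Tfr to Treg, Tfr to Tfh, cycling to resting and cycling Foxp3-positive to Treg cells. Without mitochondrial and ribosomal protein UMIs in the total they were 1.001, 1.09, 1.06, 0.973, 1.31 and 1.29; there the Treg to resting ratio of complexes III, IV and V was 0.995, 0.985 and 0.98988, and the Tfh to resting ratio of complex II 0.987, each now under 1. With cells under 5% mitochondrial they were 1.26, 1.43, 1.07, 0.946, 1.71 and 1.35, and without the highest doublet scores 1.23, 1.36, 1.14, 1.03, 1.72 and 1.40. In cells of 4000 to 8000 UMIs they were 1.21, 1.32, 1.07, 0.981, 1.34 and 1.13, and with at least 2 UMIs of gate markers 1.29, 1.45, 1.01, 0.903, 1.75 and 1.36. That marker rule left Cxcr5 and Pdcd1 in Tfr cells, and Foxp3 in cycling cells, at 1 UMI. As means over cells, Treg and cycling against resting were 1.203 and 1.65, Tfr to Tfh 0.978 and the Foxp3-positive pair 1.37. With no mitochondrial filter, Tfh and cycling against resting were 1.32 and 1.69. Counting cells with Mki67 or Top2a as cycling gave 1.54 against resting and 1.30 against Treg cells. Tfr cells without the Pdcd1 rule (183 cells) gave 1.02 to Treg and 0.926 to Tfh cells. Complex IV in Tfr to Treg cells was 0.995 with at least 2 marker UMIs and 0.997 without the Pdcd1 rule.

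Apart from the 2-fold counts, the share of all genes in these gate pairs was computed at the main setting only. There 17.5% of all genes were at least 1.5-fold higher in Treg and 26.5% in Tfh against resting cells. It was 39.8% in cycling against resting cells and 21.8% in the Foxp3-positive pair. The counts below are therefore not set against all genes. Members at least 1.5-fold higher in Treg against resting were 14 with cells under 5% mitochondrial and 18 with at least 2 marker UMIs. On the other total they were 0, with 1 lower. In Tfh against resting they were 38, 40 and 2 under the same settings in that order. In cycling against resting 28 were higher at 4000 to 8000 UMIs and 38 on the other total, with 3 lower there and 2 lower under 5% mitochondrial and with 2 marker UMIs. For the Foxp3-positive pair, 5 were higher at 4000 to 8000 UMIs, 23 on the other total and 21 with Mki67 or Top2a, with 2 lower at 4000 to 8000 UMIs, without doublets, on the other total and with 2 marker UMIs. At 2-fold, 0 were higher in Treg and Tfh cells, 32 in cycling cells and 4 in the Foxp3-positive pair, and 0 were lower in the Tfh and Foxp3-positive pairs. In Tfr against Treg, 5 were higher and 2 lower at 4000 to 8000 UMIs (27 Tfr cells), 3 higher without doublets, 2 higher and 3 lower with 2 marker UMIs, and 1 higher under 5% mitochondrial and as means over cells, with 1 lower on the other total and from 5 CPM. In Tfr against Tfh, 3 were higher and 3 lower at 4000 to 8000 UMIs, 1 higher and 3 lower with 2 marker UMIs, 1 higher without doublets and as means over cells, and 1 lower under 5% mitochondrial and from 5 CPM. At 4000 to 8000 UMIs (34 cycling cells) the log2 ratio of Ndufab1 in the Foxp3-positive pair was -0.18 and that of Ndufaf2 -0.92. For the other changes the cause was not tested.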
